A study of Mus musculus with 2 samples.

Results

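The genes of the TGF-β and BMP signaling machinery were examined for peaks in a Cleavage Under Targets and Tagmentation (Cut&Tag) experiment on mouse hippocampus. The 46 genes were chosen by name as components of the pathway, not as its targets, and they comprised 14 ligands, 13 receptors and co-receptors, 8 Smads, 4 nuclear corepressors, 3 Smad regulators, and 4 latent TGF-β binding proteins. The lists of these and of the other pathway genes below were drawn up with earlier results of these data known. All 46 were found by symbol among the 21887 protein-coding genes of the RefSeq annotation of GRCm38, the build that the submitters' notes name as mm10. A gene was counted as having a peak if at least 1 peak overlapped it or lay within 3 kb of it. Of the 46 genes, 11 had a peak.

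In this assay, an antibody on permeable nuclei guides a transposase that cuts and tags the DNA around the bound protein. The series holds 1 library made with an anti-Smad4 antibody and 1 made with an IgG control antibody, both from hippocampal nuclei, and the labels give no genotype, strain, age, or treatment for the mice. A single list of 5326 MACS2 peaks was used. GEO files this list under the IgG library and no antibody appears in its name. The study, however, describes peaks of Smad4, and the total it states for them is nearly the number in this list. The list may therefore come from the anti-Smad4 library instead. The sources used here do not settle this, and the peaks are not ascribed to either antibody or called Smad4 binding sites. Because there is 1 list and no replicate, no difference between conditions could be tested. The tissue label could not be checked against markers, since the list holds positions on DNA and no expression values.

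TGF-β superfamily ligands are secreted as dimers and bring together type II and type I receptor kinases at the cell surface. The type I receptor then phosphorylates receptor-regulated Smads, of which Smad2 and Smad3 serve the TGF-β and activin branch and Smad1, Smad5, and Smad9 the BMP branch. The phosphorylated Smads bind Smad4, enter the nucleus, and act on genes together with coactivators or corepressors, while Smad6 and Smad7 inhibit the pathway and are themselves induced by it. In the hippocampus this pathway is known for roles in neural stem cells and at synapses.

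The 11 genes with a peak made up 23.9% of the 46. Among all protein-coding genes, 13.0% had a peak by the same rule. The pathway genes were long, with a median length of 61.4 kb against 17.2 kb for all protein-coding genes, and the share of protein-coding genes with a peak rose from each bin of length to the next. It was 1.37% in the bin of the shortest genes, 12.5% in the bin from 24587 to 35837 bp, 23.1% in the bin from 57152 to 108526 bp, and 43.3% in the longest bin, from 108544 bp upward. When each pathway gene was given the share of its own length bin, the average was 21.0%, or 9.64 genes with a peak, against the 11 found. The count of 11 therefore lay close to the number that gene length alone gives. The 12 peaks of the 11 genes fell in 3.65 Mb of gene and flanking sequence, 3.29 peaks per Mb, and the same measure was 2.92 per Mb over all protein-coding genes, where a peak near several genes was counted for each of them. Within the pathway, the genes with a peak had a median length of 93.3 kb and those without 39.4 kb.

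**Figure D1:**
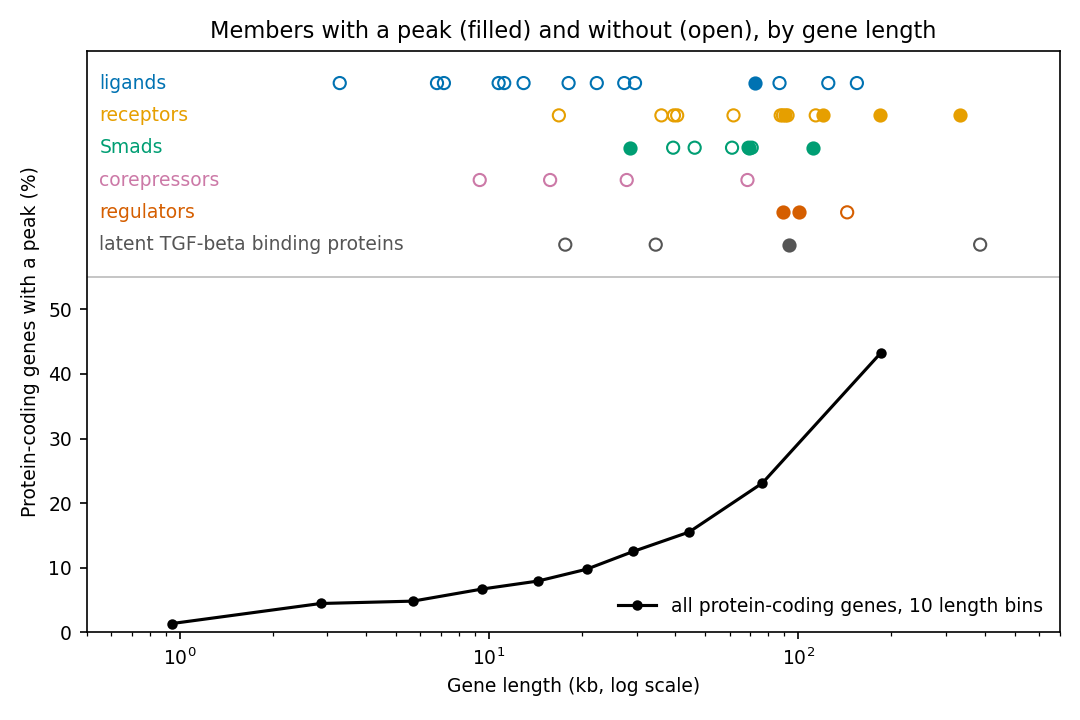
The line gives the percentage of protein-coding genes with a peak in the gene or within 3 kb (y axis) in 10 bins of gene length (x axis, kb, log scale, at each bin's median), and it rises from 1.37% to 43.3%. Above it, each circle is 1 pathway gene placed by its length, filled if it had a peak and open if it had none; filled circles lie mostly on the right, among long genes.

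The classes differed in their counts. A peak was found at 1 of 14 ligands, 4 of 13 receptors and co-receptors, 3 of 8 Smads, 0 of 4 corepressors, 2 of 3 Smad regulators, and 1 of 4 latent TGF-β binding proteins. The shares of genes of like length give 2.13 ligands, 3.43 receptors and co-receptors, 1.79 Smads, 0.503 corepressors, 0.895 regulators, and 0.887 latent TGF-β binding proteins. Ligands were thus below and Smads and regulators above the number that length gives, in each case by fewer than 2 genes. The classes are small and come from 1 peak list, and no test of the differences between them was made.

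**Figure D2:**
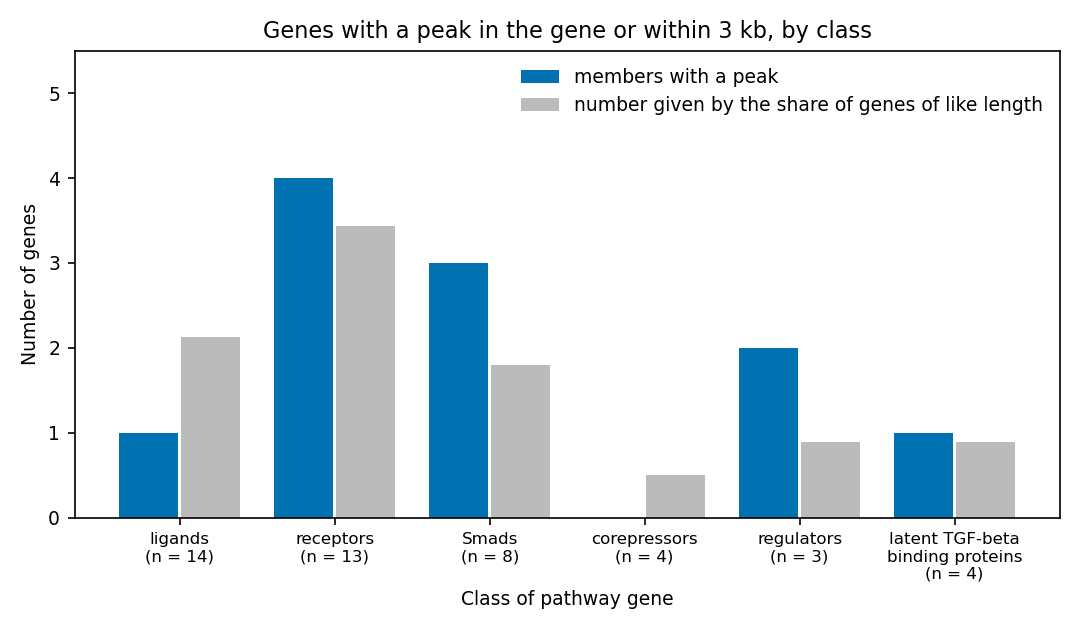
Bars show the number of genes with a peak (blue) and the number given by the share of protein-coding genes of like length (gray) for each class of pathway gene, with the number of genes in the class under its name. Receptors had 4 against 3.43, Smads 3 against 1.79, and ligands 1 against 2.13.

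The 250 bases before an annotated start are shown for Smad3, Smurf1, and Acvr1c, the genes other than Smad7 with a peak that passed a q-value limit of 0.01. They set the promoters beside peaks that lie far from them. Sequences had been planned only for promoters that held a peak, but no promoter window of a pathway gene did. The q-value is MACS2's p-value for a peak after adjustment for the number of positions tested. The sequences are from RefSeq (GRCm38), each is on the minus strand and printed 5′ to 3′, and capitals mark AGAC or its reverse complement GTCT, the core of the Smad binding element. The windows were chr9:63757995-63758244 for Smad3, chr5:144965831-144966080 for Smurf1, and chr2:58357759-58358008 for Acvr1c.
Smad3: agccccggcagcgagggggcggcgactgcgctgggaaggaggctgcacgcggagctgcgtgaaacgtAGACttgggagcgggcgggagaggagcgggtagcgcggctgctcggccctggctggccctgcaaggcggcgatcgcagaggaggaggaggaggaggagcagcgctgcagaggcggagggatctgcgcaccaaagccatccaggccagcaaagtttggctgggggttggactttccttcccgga
Smurf1: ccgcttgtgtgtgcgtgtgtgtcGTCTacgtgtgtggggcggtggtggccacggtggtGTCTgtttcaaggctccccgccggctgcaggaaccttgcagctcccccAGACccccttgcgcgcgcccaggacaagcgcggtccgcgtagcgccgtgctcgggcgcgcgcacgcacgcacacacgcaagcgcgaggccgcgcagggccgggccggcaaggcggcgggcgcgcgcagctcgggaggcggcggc
Acvr1c: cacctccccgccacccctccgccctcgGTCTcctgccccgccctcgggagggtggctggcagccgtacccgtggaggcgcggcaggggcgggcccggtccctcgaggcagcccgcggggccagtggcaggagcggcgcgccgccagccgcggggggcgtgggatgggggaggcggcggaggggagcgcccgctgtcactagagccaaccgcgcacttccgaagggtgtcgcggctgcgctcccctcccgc

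These windows held 1, 3, and 1 matches and had GC contents of 69.2%, 74.8%, and 79.6%, respectively. Acvr1c has another annotated start, nearer to its peak, and the 250 bases before it (chr2:58324808-58325057, not shown) held 0 matches and had a GC content of 49.6%. Promoter windows were given for 36 of the 46 genes, 49 windows in all, and no peak of the list overlapped any of the 49 windows, which run from 250 bases before to 50 bases after a start. Over all 32851 windows in the table, 1.34% overlapped a peak. Smad4 and Smad7, the only pathway genes with a peak within 3 kb of a gene end, had no window. Neither could therefore contribute an overlap, and the lack of overlap says nothing about these genes. AGAC or GTCT, on either strand, was present in 38 of the 49 pathway windows (77.6%), counting the 250 bases before the start. The shares were 82.9% of all windows and 81.6% of those of protein-coding genes. The longer match CAGACA, which contains AGAC, or its reverse complement was present in 16.3% of the pathway windows. It was in 17.1% of all windows and 15.2% of those of protein-coding genes. The palindrome GTCTAGAC, which contains both forms of the core, was in none of the 49 windows and in 0.167% of all. GGCGCC, a GC-rich Smad motif that does not overlap the others, was in 9 pathway windows (18.4%), in 9.59% of all windows, and in 12.3% of those of protein-coding genes. The pathway windows were also richer in GC, with a median of 64.4% against 55.6% for protein-coding genes. A match describes the letters of the window and is not a binding site. No promoter window was given for Tgfb3, Bmp2, Bmp3, Bmp7, Acvrl1, Tgfbr3, Smad2, Smad4, Smad7, and Skil.

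Among the ligands, only Bmp7, a bone morphogenetic protein that signals through the BMP-branch Smads, had a peak by the 3 kb rule. The peak lay on chromosome 2 from 172936166 to 172936554 (GRCm38), inside Bmp7 and 3767 bp below its higher-coordinate end. Its fold enrichment over the background was 3.57 and its q-value 0.0226, both as MACS2 gave them. The number of overlapping fragments at its summit, the pileup, was 3, with a 95% exact Poisson interval of 0.619 to 8.77 that covers counting error only. The noncoding RNA gene Gm40010 lay within 3 kb of the same peak. The 13 ligands with no peak were Tgfb1, Tgfb2, and Tgfb3, which encode the 3 TGF-β isoforms, Bmp2, Bmp3, Bmp4, Bmp5, and Bmp6, the inhibin and activin subunit genes Inha, Inhba, and Inhbb, and Gdf10 and Gdf11. Ligand genes were the short class, with a median of 20.2 kb. Bmp5 and Bmp6, however, are 125 kb and 155 kb long, and 43.3% of protein-coding genes in their length bin had a peak. The nearest peak to Tgfb1 was 1100 kb away, and the nearest to Inhba 717 kb.

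The 3 type I receptors with a peak were Acvr1, Acvr1c, and Bmpr1b, of 7, and all 3 peaks lay deep inside the gene. The shares of genes of like length give 1.79 of the 7. Type I receptors carry the kinase that phosphorylates the Smads. Acvr1c, a receptor for activin and Nodal-like ligands, had the strongest of them, on chromosome 2 from 58290392 to 58290888, and its pileup was 4 (95% exact Poisson interval 1.09 to 10.2), its fold enrichment 4.63, and its q-value 0.000249. This peak ranked 861 of 5326 by q-value, and its summit was 34.3 kb from the nearest annotated start, the one whose sequence is not shown. Acvr1, a BMP and activin receptor that lies 88.5 kb from Acvr1c, had a peak at 58496757 to 58496971, 70.0 kb from its start. The Bmpr1b peak, on chromosome 3 from 142036348 to 142036750, lay 54.3 kb from the nearest of the annotated starts in a gene of 332 kb, the longest of the receptors. The Acvr1 and Bmpr1b peaks had identical values, a pileup of 2, a 2.88-fold enrichment, and a q-value of 0.0272, which 1662 peaks of the list share. No peak was found at the type I receptors Tgfbr1, Acvr1b, Acvrl1, and Bmpr1a.

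None of the 4 type II receptors, Tgfbr2, Acvr2a, Acvr2b, and Bmpr2, had a peak. These are the constitutively active kinases that bind ligand and activate the type I receptor. Their median length was 88.4 kb, and the shares of genes of like length give 1.05 genes with a peak, against 0 of 4 found. With so low a number, a count of 0 says little about a shortfall. Their nearest peaks were 87.6 kb (Bmpr2) to 247 kb (Acvr2a) away. Tgfbr3, which encodes betaglycan, a co-receptor that presents TGF-β2 to the signaling receptors, had a peak on chromosome 5 from 107150124 to 107150393 that had the same pileup of 2 and q-value of 0.0272 as the Acvr1 peak. It lay 43.6 kb from the lower-coordinate end and 139 kb from the higher-coordinate end of the gene. Eng, which encodes the endothelial co-receptor endoglin, had none by the 3 kb rule.

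Among the 46 genes, peaks within 3 kb of a gene end were found at 2, the Smads Smad7 and Smad4. Smad7 encodes an inhibitory Smad that blocks type I receptors and recruits Smurf ligases to them. Its peak lay on chromosome 18 from 75366681 to 75367020, outside Smad7 itself, with 345 bp between the peak and the lower-coordinate end. It had the highest pileup of the 12 peaks, 6 fragments (95% exact Poisson interval 2.20 to 13.1), and MACS2 gave it a 5.13-fold enrichment and a q-value of 0.000784. No other peak of the list had the same pair of fold enrichment and q-value, and the background expected there, 0.364 fragments, was the highest of the 12. The noncoding RNA gene Gm20544 also lay within 3 kb of the Smad7 peak. 

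Smad4, the common partner of the receptor-regulated Smads and the protein that the anti-Smad4 antibody is directed against, had a peak on chromosome 18 from 73705979 to 73706537. It lay outside Smad4 itself, 2188 bp above the higher-coordinate end, and the noncoding RNA gene 4930578L24Rik was within 3 kb of it as well. The pileup was 3 (0.619 to 8.77), the fold enrichment 3.47, and the q-value 0.0272, so that this peak did not pass a q-value limit of 0.01. At 559 bp it was the widest of the 12 peaks, which had a median width of 363 bp. The strands of Smad4 and Smad7 were not used here, and their peaks are described by coordinate only.

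Smad3, which carries TGF-β and activin signals, had a peak on chromosome 9 from 63716319 to 63716573, inside the gene and 41.7 kb from the start that follows the sequence shown above. The pileup was 4, the fold enrichment 4.23, and the q-value 0.00556. No peak by the 3 kb rule was found at Smad2, the closest relative of Smad3, at Smad1, Smad5, and Smad9 of the BMP branch, or at Smad6, the other inhibitory Smad. Smad6 lies 195 kb from Smad3 on the same chromosome, and its nearest peak was 18.2 kb away. The nearest peak to Smad2 was 400 kb away.

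The corepressors had no peak. Ski and Skil encode the proteins Ski and SnoN, which bind Smad complexes and hold their targets repressed, and Tgif1 and Tgif2 encode homeodomain corepressors. Their lengths were 68.5 kb for Ski, 27.9 kb for Skil, 9.33 kb for Tgif1, and 15.8 kb for Tgif2, and length gives 0.503 genes with a peak among the 4. The distance to the nearest peak was 16.1 kb for Ski, 50.9 kb for Skil, 183 kb for Tgif1, and 254 kb for Tgif2.

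Both Smurf genes had peaks inside the gene. Smurf1 and Smurf2 encode ubiquitin ligases that mark Smads and, with Smad7, receptors for degradation. Smurf1 had 2 peaks, and each of the other 10 genes with a peak had 1. The stronger, on chromosome 5 from 144894493 to 144894877, had a pileup of 5 (95% exact Poisson interval 1.62 to 11.7), a 5.35-fold enrichment, and a q-value of 4.87e-05, and by q-value it ranked 666 of 5326, the highest of the 12. It lay 71.2 kb from the start of Smurf1, 79.7% of the way along the gene, and the microRNA gene Mir7039 was within 3 kb of it. The other, from 144884522 to 144884723, had a pileup of 2 and a q-value of 0.0439. The Smurf2 peak, on chromosome 11 from 106873434 to 106873760, had a pileup of 2 and a q-value of 0.0272 and lay 47.1 kb from the start, near the middle of the gene. Zfyve9, which encodes the anchor protein SARA that presents Smad2 and Smad3 to the receptor, had no peak although at 144 kb it is longer than either Smurf gene.

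Of the latent TGF-β binding proteins, which tether latent TGF-β or related proteins in the extracellular matrix, only Ltbp2 had a peak. It lay on chromosome 12 from 84854243 to 84854634, 22.1 kb from the start of the gene, with a pileup of 2 and a q-value of 0.0439. Ltbp1, the longest gene of the 46 at 387 kb, had none, and its nearest peak was 746 kb away. Ltbp3 and Ltbp4 had none.

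**Figure D3:**
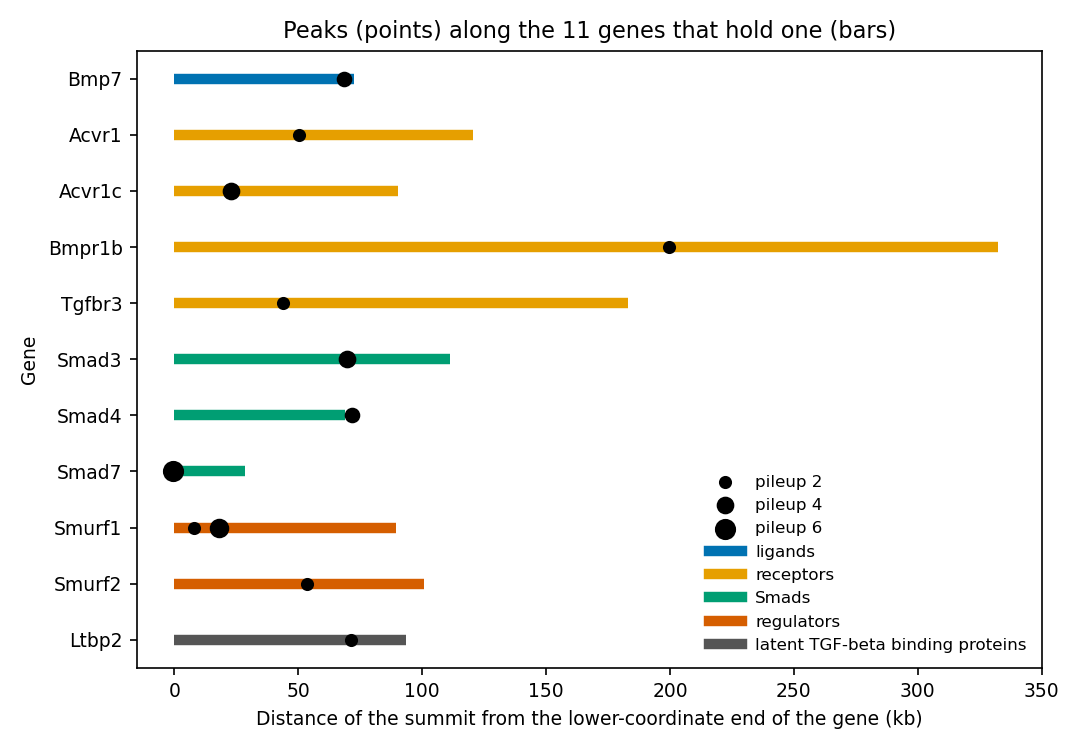
Each bar is 1 of the 11 genes with a peak, drawn to scale from its lower-coordinate end (x axis, kb) and colored by class, and each point is the summit of a peak with an area proportional to its pileup. The Smad7 and Smad4 summits lie just outside the bars, and the other 10 lie inside.

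Peaks of the pathway genes were thus mostly inside genes and away from their ends. Of the 11 genes with a peak, 2 (18.2%) had a peak at most 3 kb from an end and 9 (81.8%) had peaks only farther inside. Among the 2836 protein-coding genes with a peak, 40.9% had 1 within 3 kb of an end, and over all protein-coding genes the share was 5.30%, against 2 of the 46 pathway genes. The pathway genes with a peak were longer than the protein-coding genes with a peak, at medians of 93.3 kb and 59.6 kb, and the part of length in this difference was not tested. For the 7 genes with a peak and an annotated start, the summits lay between 22.1 kb (Ltbp2) and 81.2 kb (the weaker Smurf1 peak) from the nearest start.

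The peaks were weak, as were most in the list. The pileup was 2 in 6 of the 12 peaks, against 53.4% of all 5326 peaks, and the median fold enrichment was 3.18 against 2.88. The q-value was at most 0.01 in 4 of the 12 (33.3%), those at Smurf1, Acvr1c, Smad7, and Smad3, and in 38.6% of all peaks. Counted by gene, 4 of 46 (8.70%) had a peak at this limit, beside 6.32% of all protein-coding genes and an average of 10.3% for genes of like length. At a limit of 0.001, the peaks at Smurf1, Acvr1c, and Smad7 were left. Pileups of 2 and 6 have overlapping counting intervals, 0.242 to 7.22 and 2.20 to 13.1, so the order of the 12 peaks by pileup is not firm.

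**Figure D4:**
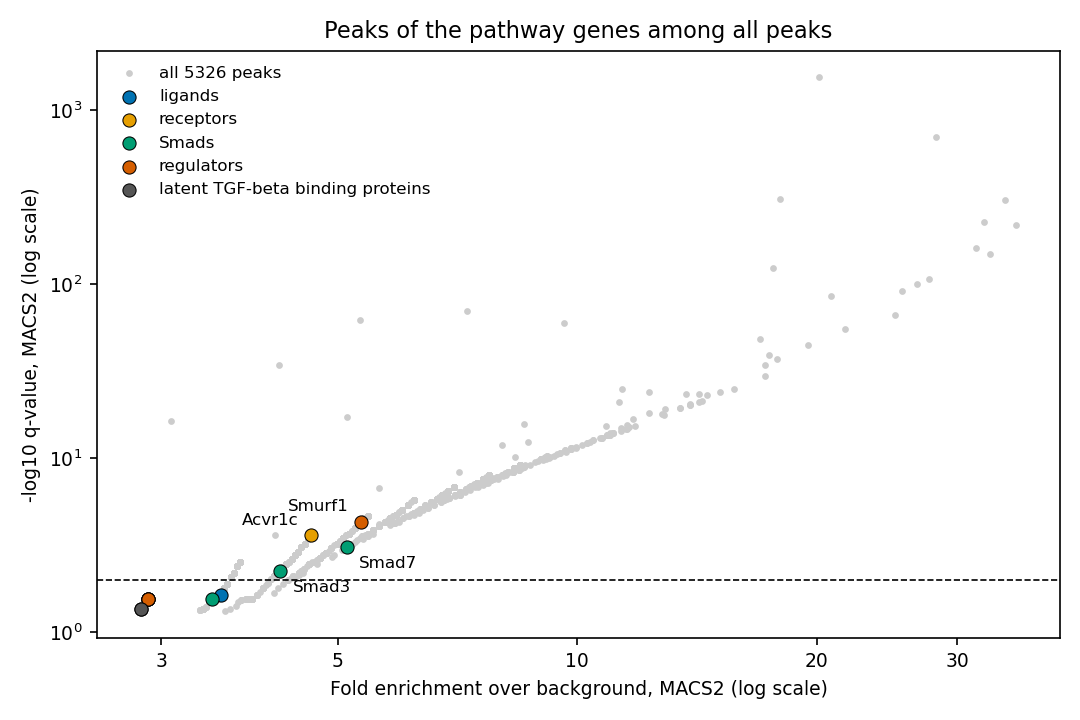
Every peak of the list is placed by its fold enrichment (x axis) and −log10 q-value (y axis), both from MACS2 on log scales, in gray, and the 12 peaks of the pathway genes are colored by class. Of these 12, 4 lie above the dashed line at a q-value of 0.01 and are named, and the rest sit at the lower left, where several share the same position.

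The 3 kb limit decided few genes. Just inside it was the peak 2188 bp from Smad4, and just outside were peaks 5029 bp from Bmp4, 7178 bp from Bmp6, and 9919 bp from Eng. The Bmp6 neighbor was far stronger than any of the 12 counted peaks. It lay on chromosome 13 from 38338164 to 38338538, below the lower-coordinate end of the gene and within 3 kb of Gm47990, with a pileup of 23 (95% exact Poisson interval 14.6 to 34.5), a fold enrichment of 15.1, and rank 28 of 5326 by q-value. The Bmp4 neighbor, on chromosome 14 from 46395698 to 46395929, had a pileup of 3 and a q-value of 0.00285, and the Eng neighbor, within 3 kb of Ak1, had a pileup of 2. The distance of the nearest peak from the 35 genes without one had a median of 140 kb, and it was over 100 kb for 20 of them.

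**Figure D5:**
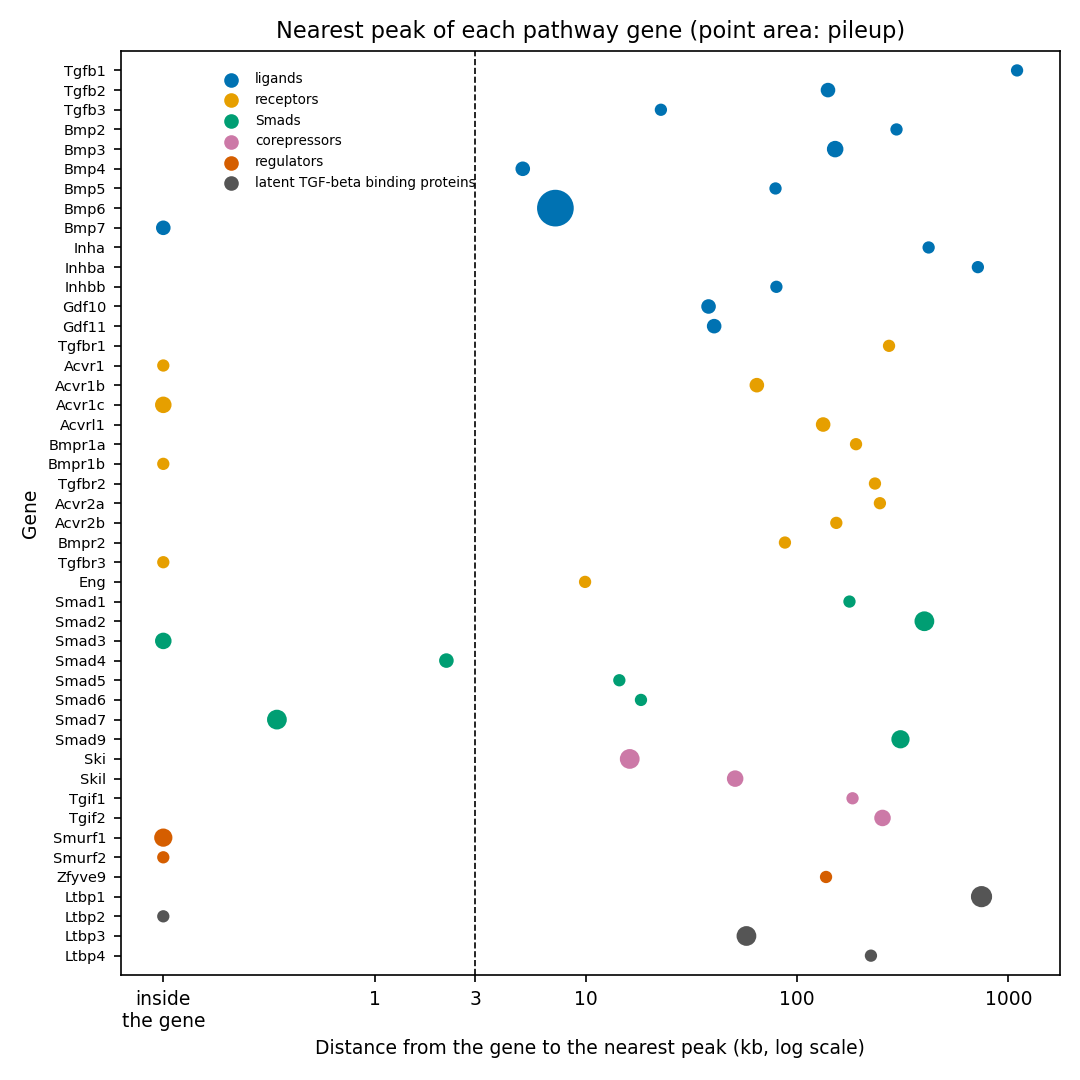
The distance from each of the 46 genes to its nearest peak is shown on a log scale in kb (x axis), with peaks that overlap the gene at the far left, the 3 kb limit as a dashed line, and point areas proportional to pileup. The large point at 7.18 kb is the peak beside Bmp6, with a pileup of 23.

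Other genes of the pathway were counted by the same rule from a separate list of 108 symbols, of which 107 were found. They comprised extracellular antagonists, the remaining ligands and receptors, proteins that process or store ligands, Smad partners, proteins of Smad or receptor turnover, and the Smad-independent branch. Of the 107, 20 (18.7%) had a peak, beside the 13.0% of all protein-coding genes and an average of 18.1% for genes of like length. The counts were 5 of 23 antagonists, 1 of 19 ligands, 2 of 8 receptors or co-receptors, 1 of 13 genes for ligand processing and storage, 4 of 17 Smad partners, 4 of 18 genes of Smad or receptor turnover, and 3 of 9 of the Smad-independent branch. In the same order, the shares of genes of like length give 4.22, 1.14, 1.17, 3.55, 4.53, 3.49, and 1.29 genes. The count for ligand processing and storage was thus below and that for the Smad-independent branch above the number that length gives, and no test of these differences was made. The ligands on this list were short, with a median length of 6.16 kb.

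Among these 20 genes, a peak was at most 3 kb from an end in 8: Nog, Cer1, Gdf9, Hjv, Nrros, Zeb1, Tab1, and Limk1. That is 40% of the 20, beside 40.9% of all protein-coding genes with a peak, and 7.48% of the 107, beside 5.30% of all protein-coding genes. The strongest was at Nog, which encodes the BMP antagonist noggin: the peak lay on chromosome 11 from 89303127 to 89303385, 568 bp outside the higher-coordinate end, and its pileup was 8 and its fold enrichment 7.36. Tab1, a partner of the kinase Tak1, had 2 peaks with a pileup of 4 each, 1 of them 279 bp from its lower-coordinate end. Both also lay within 3 kb of the noncoding RNA gene Gm31253, and the Gdf9 peak lay within 3 kb of the protein-coding gene Uqcrq. Limk1, a kinase of the actin cytoskeleton, had a peak with a pileup of 4 whose summit was 481 bp from a start. A q-value of at most 0.01 was also reached at Twsg1, an extracellular BMP modulator, and at Nrros, Runx1, Kat2b, and Pmepa1, of which Pmepa1 encodes an inhibitor of receptor-regulated Smads. The Twsg1 and Pmepa1 peaks had pileups of 6 and 5 and lay inside the gene, at least 7605 bp and 18944 bp from an end, and the fold enrichments were 6.13 and 5.08.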

How the data were processed

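Cut&Tag libraries were made from hippocampal nuclei with an anti-Smad4 or an IgG control antibody, 1 each. Per the paper's methods and the labels, the authors mapped paired-end reads, kept uniquely mapped ones, and ran MACS2 with a cutoff of 0.05. The submitters' processing notes name BWA, MACS2, HOMER, and mm10. Versions, duplicate handling, and whether the IgG library served as control are not given in the sources used here. The number of reads was not used. For each peak the authors deposited a fold enrichment (a ratio to the background), a score, the −log10 p-value and −log10 q-value, and the summit offset. The largest q-value was 0.0472.

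Gene positions were those of RefSeq for GRCm38 (49943 genes on 21 chromosomes). Distances run from the peak interval to the gene, or from the summit to the starts in the RefSeq promoter table. Pileups were solved from fold enrichment, (pileup + 1) / (background + 1), and the Poisson p-value; all 5326 matched within a relative 0.001, and 2000 of 2000 simulated pileups were recovered. Background shares were taken in 10 bins of gene length with equal gene numbers; no lists were drawn, and no test was run. Poisson intervals are exact, at 95%. The 46 genes and the other lists were chosen with earlier results of these data known. Every member was named, and of the other pathway genes those with a peak at most 3 kb from an end or a q-value of at most 0.01. The symbol Znf451 was not matched. Peak sequences, exons, and introns were not analysed here. Alternatives changed the peak threshold, window, summit, length bins, gene set, and motif strand. Python 3.11.15, NumPy 2.4.6, pandas 2.3.3, SciPy 1.17.1, and Matplotlib 3.10.9 were used.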

Additional observations from a re-analysis of the deposited data

How the results depend on the processing

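No paired analysis was possible because each antibody had 1 library and only 1 peak list was used. Every count rests on few fragments, and 6 of the 12 peaks had a pileup of 2. Stricter thresholds remove peaks by construction. With a q-value of at most 0.01, at most 0.001, and a fold enrichment of at least 5, the 11 pathway genes with a peak became 4, 3, and 2, their 12 peaks 4, 3, and 2, the receptors 1, 1, and 0, the regulators 1, 1, and 1, the ligands 0, 0, and 0, and the latent TGF-β binding proteins 0, 0, and 0. The 3 Smads became 2, 1, and 1, the 2 genes with a peak near an end 1, 1, and 1, and the 20 other pathway genes 8, 3, and 3. For the 46 genes, the average share of genes of like length fell from 21.0% to 10.3%, 5.87%, and 4.44%. At a q-value of at most 0.01, 6.32% of all protein-coding genes had a peak, beside 8 of the 107 other pathway genes. By class, the shares of genes of like length at this limit were 7.35% for ligands, 13.0% for receptors, and 11.1% for Smads. They were 6.19% for corepressors, 14.7% for regulators, and 10.5% for latent TGF-β binding proteins. Genes with a peak near an end have no such share here. Corepressors, at 0, could not fall further, and they were also at 0 with a window of 10 kb, while 2 of the 4 had a peak within 100 kb.

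With a 1 kb window 10 of the 46 genes had a peak, with overlap alone 9, and with 10 kb 14. In the same order, the shares of all protein-coding genes were 12.0%, 10.9%, and 16.3%, and those of genes of like length, added after seeing the data, 20.1%, 19.0%, and 24.1%. Smads fell to 1 with overlap alone, and ligands rose to 3 with 10 kb. Genes with a peak near an end became 1, 0, and 8 with windows of 1 kb, 0, and 10 kb, beside 3.28%, 0.941%, and 10.8% of all protein-coding genes. Summits changed none of the counts of genes. The share for genes of like length was 19.7% with 100 length bins and with the 50 genes nearest in length, and 21.0% with all RefSeq genes. A window of 100 kb, chosen after seeing the data, gave 26 genes. On the strand of the gene alone, 59.3% of promoter windows held AGAC and 8.93% CAGACA. For protein-coding genes only, added after seeing the data, the shares were 81.6%, 15.2%, and 12.3% for GGCGCC. Over all alternatives, 102 values were compared, of which 54 stayed within 1.5 times the count or within the interval of the share and 48 did not. Some of the values that stayed could not have changed. Corepressors, at 0, could not fall with stricter limits or narrower windows, and the palindromes GTCTAGAC and GGCGCC read the same on both strands. The tally is therefore not a measure of robustness.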

Other observations

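Wider surroundings were counted after the data were seen. Of the 46 pathway genes, 26 (56.5%) had at least 1 peak in the gene or its flanks of 100 kb, and 47.6% of all protein-coding genes did, with no allowance for gene length. By class these were 8 of 14 ligands, 7 of 13 receptors and co-receptors, 5 of 8 Smads, 2 of 4 corepressors, 2 of 3 regulators, and 2 of 4 latent TGF-β binding proteins. Bmp7 and Smad3 had the most, with 4 peaks each, and Smad7, Ski, and Smurf1 had 3 each. For 20 genes of all classes, no peak lay within 100 kb. These were the ligands Tgfb1, Tgfb2, Bmp2, Bmp3, Inha, and Inhba, and the type I receptors Tgfbr1, Acvrl1, and Bmpr1a. They also included the type II receptors Tgfbr2, Acvr2a, and Acvr2b, while Bmpr2 had 1 peak. The rest were Smad1, Smad2, Smad9, Tgif1, Tgif2, Zfyve9, Ltbp1, and Ltbp4. Acvr1 and Acvr1c, which lie 88.5 kb apart, share part of their surroundings, as do Acvr1b and Acvrl1, 28.7 kb apart.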
